A study of Mus musculus with 24 samples.

Results

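B16-D-735 is a line of B16 mouse melanoma cells that was recovered from a mouse after tumor dormancy, grown again in culture and compared here with B16-M, the parental B16-F1 melanoma line from which it descends. It is a second-generation dormant line: cells of a first dormant isolate, B16-D, were put back into mice and taken again from the brain, which gave 3 sister lines, B16-D-733, B16-D-735 and B16-D-739. The comparison holds 6 of the 24 arrays of the series, 3 of B16-D-735 and 3 of B16-M, chosen by their sample titles. Arrays of the other dormant melanoma lines entered the same fit, of 16 melanoma arrays in all. They thus help to set the spread behind the p-values, and they show below where B16-D-735 differed from these lines. All of these melanoma lines carry green fluorescent protein and share the B16-F1 background, and all were amplified in vitro in serum-containing medium before RNA was taken, so that the levels are those of cultured cells and not of cells resting in tissue. The mice from which the dormant cells came had been immunised before challenge. The labels do not say whether the arrays of a line were separate cultures. The p-values thus measure the spread between arrays within the fitted lines, which may be technical.

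B16 cells are pigment cells, and their identity rests on Mitf and Sox10, the transcription factors that drive the enzymes and structural proteins of the melanosome. Tumor dormancy is a state in which residual cancer cells persist for long periods without net growth, and it has been linked to cell cycle inhibitors, to the extracellular matrix around the cells and to immune control. Interferons act on melanoma as on most cells by activating IRF and other factors, which bind a repeated GAAA element near the start of antiviral and antigen-presentation genes. The coactivator PGC-1alpha, the product of Ppargc1a, drives mitochondrial biogenesis and respiratory genes, and in melanocytic cells it lies downstream of Mitf.

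Each level given below is a log2 signal relative to the 75th percentile of its own array, so that 0 is the level of a fairly bright probe, and a probe not told from background lies far below 0. Between 53.1% and 55.3% of the spots were well above background on the arrays of B16-D-735, and between 51.4% and 54.1% on those of B16-M. Each of 3 slides held 1 array of either line, and per-array values are given in the order of slides 1, 2 and 3. Pearson's correlations over the probes were 0.9606 to 0.9856 within B16-D-735, 0.965 to 0.986 within B16-M and 0.9526 to 0.9867 between the lines, ranges that overlapped.

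Both lines were melanocytic. All 9 of 9 pigment cell markers were well above background in both, and their summed linear level was 1568 to 1723 in B16-D-735 and 1509 to 1658 in B16-M. Mitf read 6.18, 6.22 and 5.91 in B16-D-735 and 6.02, 5.84 and 6.02 in B16-M, and the ranges overlapped (log2 difference 0.14, limma adjusted p = 0.847). The difference was -0.10 for Sox10 (adjusted p = 0.784), -0.12 for Tyr, the tyrosinase that begins melanin synthesis, and 0.04 for Pmel, the fibril protein of the melanosome. None of 10 regulators of the melanocyte lineage and none of 30 melanosome genes passed the limma test in either direction, with a median log2 difference of 0.03 for the melanosome genes. At an unadjusted p under 0.05, 2 of the regulators were higher and 1 melanosome gene, Oca2, was lower. Oca2, also 1 of the 9 markers, read 0.65, 1.47 and 0.58 in B16-D-735 and 1.70, 1.63 and 2.305 in B16-M. These arrays did not overlap (log2 difference -0.98, limma adjusted p = 0.238).

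Of 22869 genes and unnamed transcripts tested, 1257 (5.5%) differed between B16-D-735 and B16-M at an adjusted p under 0.05 in limma. Of these, 764 (3.34% of those tested) were higher in B16-D-735 and 493 (2.16%) were lower. Over all genes tested the median log2 difference was -0.006 and 49.3% lay above 0. At an unadjusted p under 0.05, 3909 of the 22869 differed in either direction. The median size of a called difference was 0.946 on the log2 scale, the smallest was 0.324, and 591 exceeded 2-fold, 398 upward and 193 downward. In 133 of the called genes B16-M was not above background on any array, and in 33 B16-D-735 was not. The count depended on how the spread was estimated: 537 were called when only the 6 arrays of these lines entered the fit, and 2273 with the slide as a block. Without the array of B16-M replicate 1 the count was 756, and without that of B16-D-735 replicate 0 it was 833.

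Against the mean of the other 3 dormant melanoma lines, 1517 genes (6.63%) were higher in B16-D-735 and 1535 (6.71%) were lower. Of the 764 genes above the parent, 444 (58.1%) were also above the other dormant lines, and of the 493 below the parent, 324 (65.7%) were also below them. Both comparisons use the arrays of B16-D-735, so that these shares are descriptions and no test was made of them.

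The 12 highest rises, chosen by size among genes with separated arrays, started from a low level, and 10 of the 12 were not above background on any array of the parent. Mrap, an accessory protein that takes melanocortin receptors to the cell surface, read 0.14, 0.37 and 0.07 in B16-D-735 and -6.62, -7.23 and -6.84 in B16-M. It was well above background on every array of the former and on none of the latter, and the difference was at least 34.2-fold (limma adjusted p = 1.01e-07), where "at least" sets the bright line against the lowest signal that counted as above background. Its mean was -4.92 in B16-D, -4.05 in B16-D-733 and -5.85 in B16-D-739, and B16-D-735 was at least 28.2-fold above the mean of these lines (adjusted p = 2.06e-07). Rps6ka6, which encodes the RSK4 kinase, read -0.48, -0.80 and -0.84 against -6.36, -7.06 and -6.09, at least 18.3-fold higher (adjusted p = 6.97e-06). Hoxb7, a homeobox factor of the trunk, read -1.28, -1.37 and -1.05 against -6.95, -7.18 and -6.91, at least 12.7-fold higher (adjusted p = 5.21e-05). Both were low in each of the other dormant lines too, with means of -6.99 to -6.20. None of their arrays was above background for Rps6ka6 and 1 was for Hoxb7, so that B16-D-735 was at least 17.99-fold and at least 16.6-fold above them.

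Capn6, a calpain without protease activity that binds microtubules, was at least 22.9-fold above the parent, reading -0.17, -1.03 and 0.05 against -5.88, -5.60 and -6.48, and stood 3.07 above the other dormant lines. Ldhd, the mitochondrial D-lactate dehydrogenase, was measured on all 6 arrays and read 1.14, 1.04 and 1.24 against -4.48, -4.19 and -4.14. That is a 42.4-fold rise (log2 difference 5.41, SE 0.24, adjusted p = 3.19e-08), the arrays of the lines lay far apart, and the other dormant lines lay between them at means of -1.83 to -0.23. Other genes with large rises were high in all dormant lines. Myl9, the regulatory light chain of non-muscle and smooth muscle myosin, was at least 34.5-fold above the parent, with means of 0.15, 0.81 and 1.21 in B16-D, B16-D-733 and B16-D-739, and its difference from them was -0.49 (adjusted p = 0.27). Gsta4, which conjugates lipid aldehydes to glutathione, rose by 4.95 on the log2 scale (SE 0.38, adjusted p = 4.02e-06), with the parent above background on 1 of 3 arrays, and differed from the other dormant lines by 0.33 (adjusted p = 0.644).

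**Figure D1:**
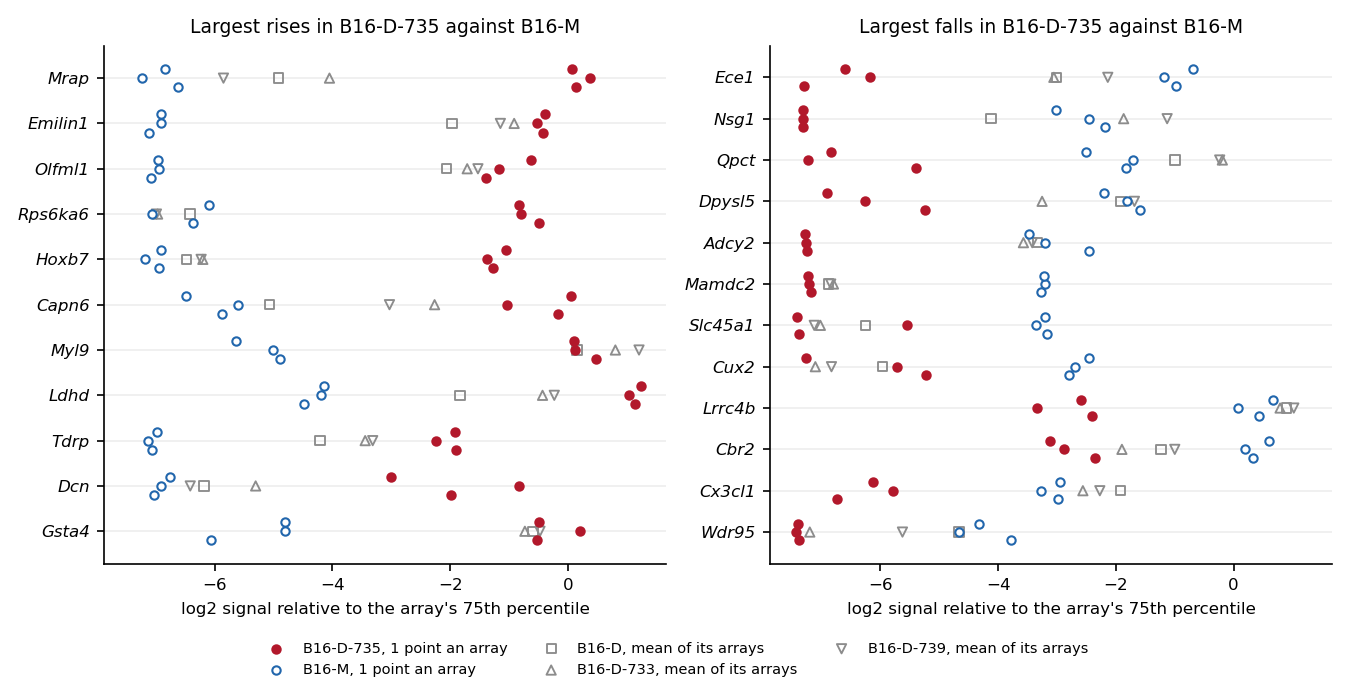
Levels of 23 of the genes with the largest rises and falls, in log2 signal relative to the 75th percentile of each array; filled and open circles are single arrays of B16-D-735 and B16-M, and gray symbols are means of the other dormant melanoma lines. In each gene the 3 arrays of one line all lie above those of the other, and for Rps6ka6 and Hoxb7 the gray symbols lie with the parent.

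Among the 12 largest falls, Ece1, the endothelin-converting enzyme, read -7.29, -6.17 and -6.61 in B16-D-735 and -0.97, -1.18 and -0.68 in B16-M. It was not above background on any array of B16-D-735, so that it was at least 17.6-fold lower (limma adjusted p = 1.85e-07), and at least 5.11-fold lower than the mean of the other dormant lines. Qpct, the glutaminyl cyclase that modifies the amino end of peptides, read -5.39, -7.23 and -6.84 against -1.83, -1.71 and -2.50, at least 8.40-fold lower, while its means of -0.99, -0.19 and -0.24 in B16-D, B16-D-733 and B16-D-739 lay above the parent. Nsg1, an endosomal protein of neurons, was at least 5.78-fold lower, and Adcy2, an adenylyl cyclase, at least 4.12-fold lower. Lrrc4b, a synaptic adhesion protein, was measured in both lines at -2.40, -3.34 and -2.59 against 0.44, 0.07 and 0.67. That is 8.98-fold lower (log2 difference -3.17, SE 0.27, adjusted p = 9.21e-06), with no overlap, and the other dormant lines were at 0.79 to 1.02. The chemokine gene Cx3cl1 was at least 4.06-fold lower than in the parent and at least 7.13-fold lower than in the other dormant lines. Mamdc2 and Cux2 were not above background on any array of the other dormant lines either, and Slc45a1 on 1, so that no difference from them is given, and the call of Slc45a1 against the parent was lost when all 17 melanoma arrays were fitted.

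The remaining results are given by 34 gene lists beside the cell type markers. The respiratory chain list held the most calls, 14, and the interferon and glutathione lists held 12 each. Calls were all upward in the respiratory chain and interferon lists. Of the cytokine list 50% was called, over the 14 of 44 listed genes that were tested. Of the called genes, Ctf1 and Cxcl1 passed the background filter only through B16-D-735 and Cx3cl1 only through B16-M. The filter can thus raise this share. A list whose share called lies near the 5.5% of all genes gives no result about that list.

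**Figure D2:**
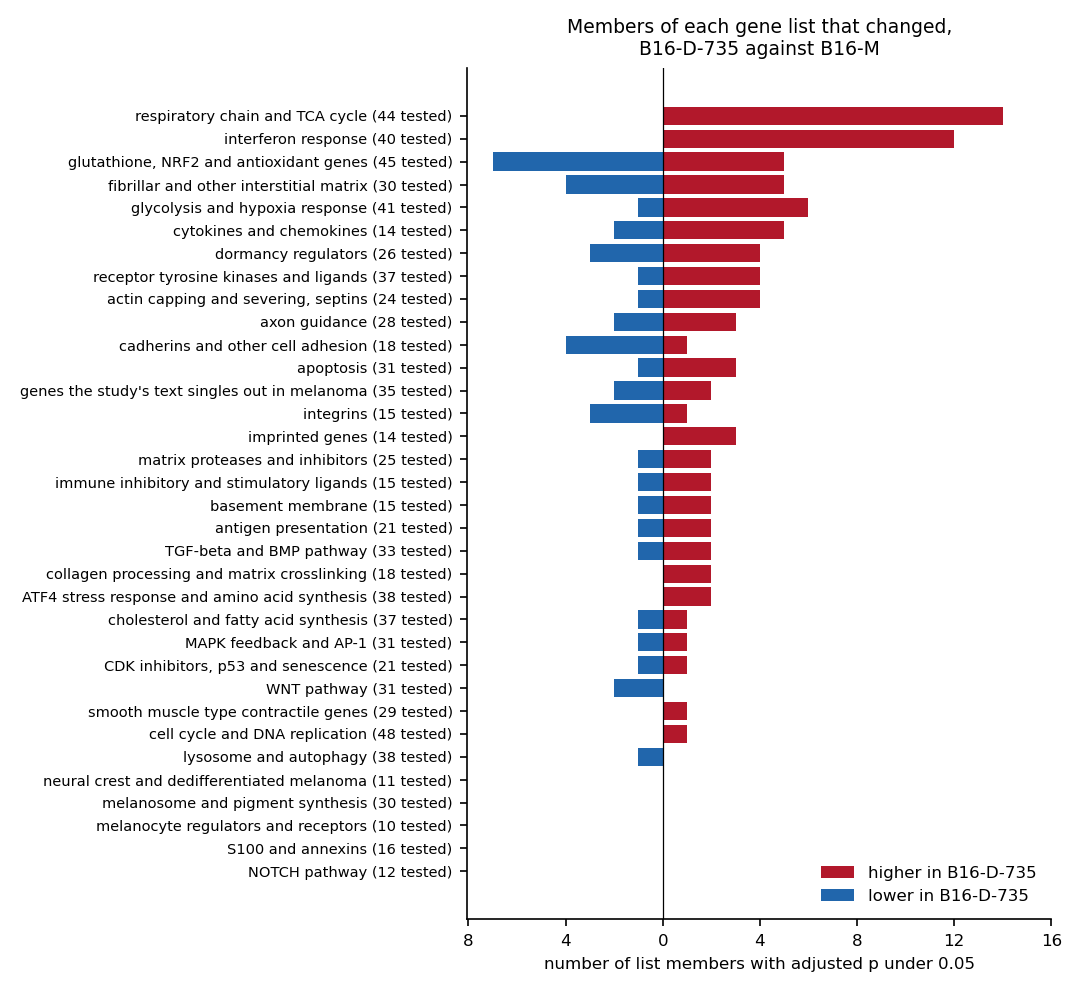
Members of each gene list called higher or lower in B16-D-735 than in B16-M, as counts of genes (limma, adjusted p under 0.05). The respiratory chain list holds 14 higher and the interferon list 12 higher, with none lower in either, while the melanosome, melanocyte regulator, neural crest, S100 and NOTCH lists hold no call.

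Of 40 measured genes of interferon signalling and response, 12 rose in B16-D-735 and 0 fell in limma, with 22 higher and 1 lower at an unadjusted p under 0.05. The median log2 difference was 0.74 and 31 of the 40 were above 0, beside a median of -0.006 and 49.3% above 0 over all genes. Of all 22869 tested, 3909 had an unadjusted p under 0.05 in either direction. Within slides 1, 2 and 3 the median was 0.58, 0.47 and 1.34. In 25 of the 40 every array of B16-D-735 lay above every array of B16-M, and in 0 was the reverse seen. The share of all genes so separated is not given here, so that this count is no result about the list. Irf7, the transcription factor that amplifies the type I response, read 0.71, 0.63 and 0.97 against -0.58, -1.27 and -1.20, a 3.46-fold rise (limma adjusted p = 3.98e-04). Usp18, the protease that removes ISG15 from proteins, read -0.09, -0.80 and 0.21 against -2.20, -2.25 and -2.52, a 4.29-fold rise (adjusted p = 4.51e-04). Both sets of arrays were separated by more than the spread within either line.

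Rtp4, an interferon-induced chaperone of receptors, rose 4.74-fold (adjusted p = 5.86e-04). Gbp7, a guanylate-binding GTPase that acts on intracellular pathogens, read -2.87, -3.40 and -2.88 while the parent was not above background on any array, at least 3.62-fold higher (adjusted p = 2.9e-04). Igtp, an immunity-related GTPase, read -0.64, -1.27 and -0.24 against -2.20, -2.34 and -2.90. Oas1a, a sensor of double-stranded RNA, read 3.56, 3.32 and 3.82 against 2.33, 2.13 and 1.81, a 2.79-fold rise. Irf9, an IRF factor of the type I response, rose 2.37-fold, and Oasl1, Oasl2, Gbp3, Dhx58 and Ifi35 also passed. The call of Oasl1 rests on its brighter probe, since a second probe differed by 0.57. Members of the Oas and Gbp families are close in sequence, so that a probe may read more than 1 of them. Irf7, Igtp, Oas1a, Irf9, Oasl2, Gbp3, Dhx58 and Ifi35 were named after their values were seen.

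Not all of the response passed the test. Isg15, the ubiquitin-like modifier, differed by 0.80 (limma adjusted p = 0.427). Ifi27l2a differed by -1.49, the receptor chains Ifngr1 and Ifnar1 by -0.01 and -0.20, and the kinase Jak1 by 0.11, without passing. Across the other fits, 8 to 16 members were called higher, the most with the slide as a block. It was 8 with all 17 melanoma arrays and with no filter on dim probes, and 8 or 9 whichever single array was left out, where 0 or 1 member was called lower.

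For some of these genes the other dormant lines lay below the parent. Usp18 had means of -3.46, -3.22 and -4.48 in B16-D, B16-D-733 and B16-D-739, and Oas1a of 0.25, 1.19 and 0.67. Against the mean of these lines 26 of the 40 genes were higher in B16-D-735 and 0 were lower, with a median log2 difference of 1.22, where the median of all genes was 0.016. Usp18 stood 3.49 above them, Oas1a 2.87 and Igtp at least 12.6-fold, and 11 of the 12 genes above the parent were also above the other dormant lines. The exception was Oasl1, with a difference of 1.12 (adjusted p = 0.183).

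**Figure D3:**
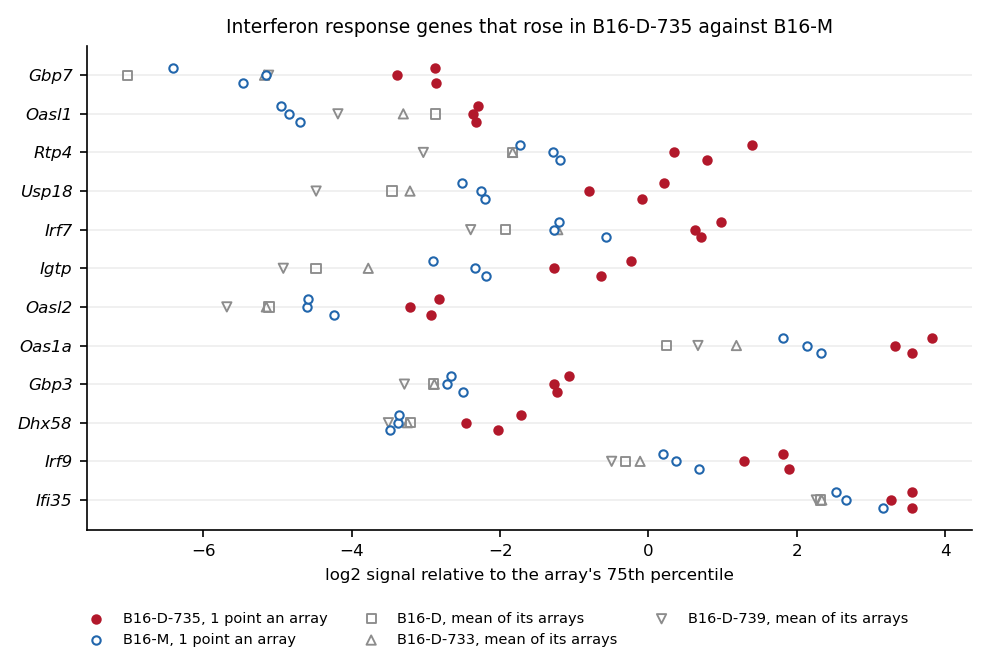
Levels of the 12 interferon genes that rose, in log2 signal relative to the 75th percentile of each array; filled and open circles are single arrays of B16-D-735 and B16-M, and gray symbols are means of the other dormant melanoma lines. In each gene the 3 arrays of B16-D-735 lie above those of B16-M, and for Usp18, Igtp and Oas1a the other dormant lines lie below both.

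The promoters of 4 of these genes are shown because they hold the repeated element that IRF factors bind, searched as GAAANNGAAA on both strands, with overlapping matches counted. Each runs 5' to 3' on the strand of the gene from 250 bases before to 50 bases after the RefSeq start (GRCm38.p6), with matches in capitals, and TTTCNNTTTC is a match on the other strand. Oas1a lies on the minus strand at chr5:120907476-120907775 and holds 2 overlapping matches. Gbp3, at chr3:142559794-142560093, also holds 2, Gbp7, at chr3:142530086-142530385, holds 1, and Igtp, at chr11:58199306-58199605, holds 1, these 3 on the plus strand.
Oas1a: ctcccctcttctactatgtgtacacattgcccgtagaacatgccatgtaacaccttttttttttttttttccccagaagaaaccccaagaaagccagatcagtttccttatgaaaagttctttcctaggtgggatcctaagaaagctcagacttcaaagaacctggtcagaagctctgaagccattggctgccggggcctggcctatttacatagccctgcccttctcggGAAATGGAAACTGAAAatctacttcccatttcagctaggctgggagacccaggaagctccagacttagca
Gbp3: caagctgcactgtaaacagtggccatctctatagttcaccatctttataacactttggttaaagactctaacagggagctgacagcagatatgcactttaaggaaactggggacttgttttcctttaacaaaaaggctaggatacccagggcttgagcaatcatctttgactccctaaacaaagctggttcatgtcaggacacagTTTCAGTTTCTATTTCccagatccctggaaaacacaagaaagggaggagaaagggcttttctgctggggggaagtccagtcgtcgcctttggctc
Gbp7: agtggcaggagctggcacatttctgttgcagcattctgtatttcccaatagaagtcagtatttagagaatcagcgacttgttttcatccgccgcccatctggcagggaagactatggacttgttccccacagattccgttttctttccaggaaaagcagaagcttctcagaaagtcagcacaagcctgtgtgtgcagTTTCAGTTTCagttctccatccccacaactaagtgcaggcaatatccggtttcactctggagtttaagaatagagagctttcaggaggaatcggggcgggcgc
Igtp: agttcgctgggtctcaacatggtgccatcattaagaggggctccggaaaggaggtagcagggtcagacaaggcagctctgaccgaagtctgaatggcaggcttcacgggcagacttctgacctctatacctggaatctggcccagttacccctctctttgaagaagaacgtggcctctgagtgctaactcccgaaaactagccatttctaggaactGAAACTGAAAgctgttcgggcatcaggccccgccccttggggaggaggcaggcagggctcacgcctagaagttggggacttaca
Of 32851 such windows in the table, 1131 (3.44%) held a match, and of 10840 tested genes with a window 3.66% did. Of the 29 interferon genes with a window 15 held one, and of the 9 called genes with a window 4 did, which are those shown. Usp18, Rtp4 and Dhx58 had no entry in the table. A match in letters is a description of the window and no evidence of binding.

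Most genes of the respiratory chain and the citric acid cycle were slightly higher in B16-D-735, of which fewer passed the test, and Ppargc1a rose by more. Of 44 measured genes 14 were higher in B16-D-735 and 0 lower in limma, or 31 and 0 at an unadjusted p under 0.05. Of all 22869 genes tested, 3909 passed unadjusted in either direction. In the list 42 were above 0, beside 49.3% of all genes. The median log2 difference was 0.41, with medians of 0.33, 0.56 and 0.25 within slides 1, 2 and 3. Ppargc1a read 3.33, 3.52 and 3.19 in B16-D-735 and -0.46, -0.31 and 0.72 in B16-M. That is a 10.3-fold rise (log2 difference 3.37, SE 0.43, limma adjusted p = 2.86e-04), a second probe differed by 3.47, and the arrays did not overlap. Its means in the other dormant lines, 0.60, 1.04 and 0.89, lay between the lines and nearer the parent, and B16-D-735 stood 2.50 above them (adjusted p = 3.54e-04).

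Cox7a1, a subunit of cytochrome c oxidase, rose by 1.34 (SE 0.26, adjusted p = 0.0067). Idh3a, a subunit of the citric acid cycle isocitrate dehydrogenase, read 4.39, 4.53 and 4.23 against 3.22, 3.11 and 3.79, a 2.01-fold rise. Atp5c1, of the ATP synthase, rose by 0.71. The other called members, named after their values were seen, included Cycs, Ogdh, Atp5a1, Uqcrc2, Ndufv1, Fh1, Ndufa9, Ndufa4 and Cox8a, with log2 differences of 0.39 to 0.65. Against the other dormant lines 13 of the 44 were higher and 0 lower, and 7 of the 14 were called in both comparisons. The count of calls is sensitive to the spread that is assumed, since it was 2 when only the 6 arrays were fitted, 9 with all 17 melanoma arrays, 5 with no filter on dim probes and 22 with the slide as a block. It was 3 without B16-M replicate 1 and 5 without B16-D-735 replicate 0 or replicate 1.

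**Figure D4:**
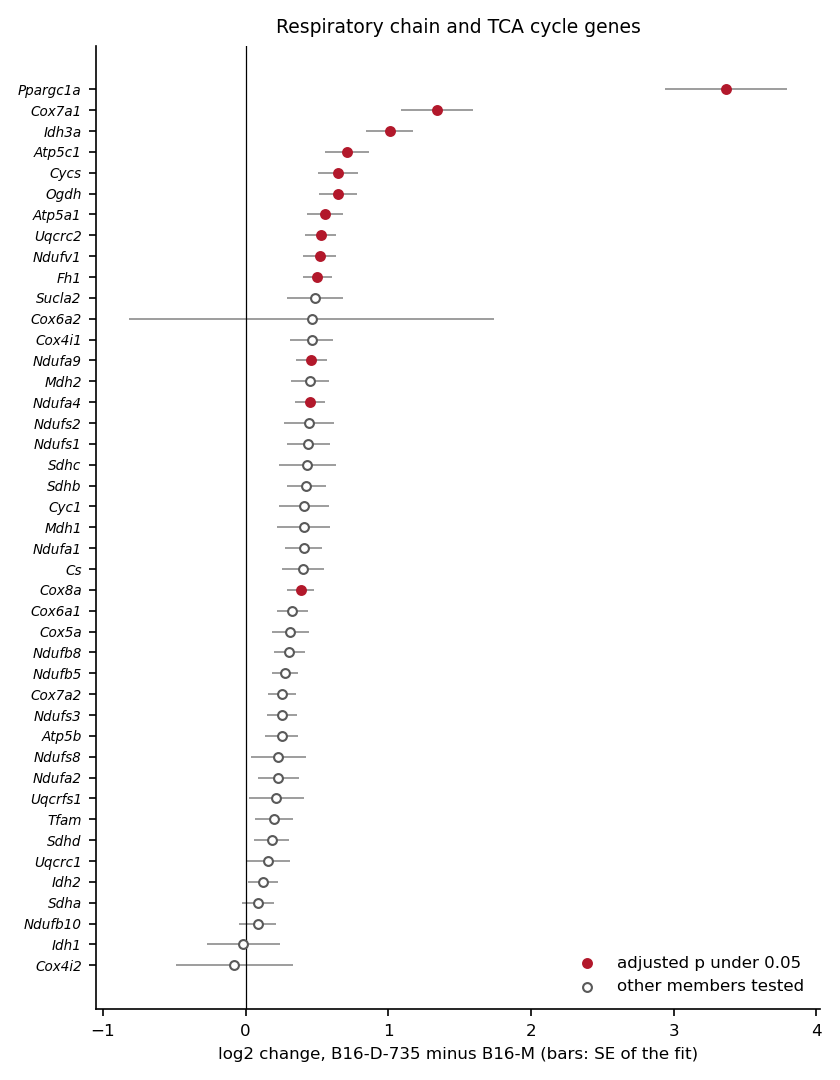
Log2 differences of 43 respiratory chain and citric acid cycle genes between B16-D-735 and B16-M, as points with bars for the standard error of the limma fit, filled where the adjusted p was under 0.05. All but Idh1 and Cox4i2 lie above 0, and Ppargc1a, at 3.37, lies far to the right of the others.

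Glycolytic genes moved less as a group. Of 41 genes of glycolysis and the hypoxia response 6 were higher and 1 lower, with a median log2 difference of 0.15. Pfkp, the platelet form of phosphofructokinase, read 3.82, 4.10 and 3.92 against 1.65, 1.89 and 2.19, a 4.1-fold rise (limma adjusted p = 8.17e-05). Ldhb, the lactate dehydrogenase subunit of oxidative tissues, read 6.09, 5.72 and 5.64 against 4.34, 4.02 and 4.29, a 3.03-fold rise (adjusted p = 1.47e-05). Both were also above the other dormant lines, by 1.31 and 1.26. Epas1, the hypoxia factor HIF-2alpha, rose by 1.51, and Pfkfb4 fell by 0.75. Hk1 rose by 1.61 on its brighter probe while a second probe differed by -0.08.

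Glutathione and redox genes moved in both directions, with 5 of 45 higher, 7 lower and a median of -0.18. Gstk1, a glutathione transferase of mitochondria and peroxisomes, read 2.30, 1.88 and 2.11 against 0.60, -0.10 and -0.58 (log2 difference 2.12, limma adjusted p = 1.24e-04), with no overlap, and differed from the other dormant lines by 0.47 (adjusted p = 0.152). Of the mu class of transferases, Gstm7 was at least 3.78-fold lower and Gstm1 and Gstm3 differed by -1.28 and -1.22, and the theta class member Gstt1 by -1.61. These transferases are close in sequence, so that their separate values are uncertain. Mgst3, a microsomal transferase, rose by 0.87 and Sod2, the mitochondrial superoxide dismutase, by 0.66.

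The matrix and its receptors changed by member and not as a group. Of 30 interstitial matrix genes 5 were higher and 4 lower, with a median of -0.11. Emilin1, a glycoprotein of elastic fibers, read -0.42, -0.53 and -0.39 in B16-D-735 and was not above background in B16-M, at least 21.9-fold higher (limma adjusted p = 1.86e-10), with means of -1.97, -0.91 and -1.15 in the other dormant lines. Olfml1, a secreted protein, was at least 14.3-fold higher. Dcn, the proteoglycan decorin that binds collagen and growth factors, read -1.99, -0.83 and -2.999, the widest spread of the 12 largest rises, and was at least 7.80-fold higher. Thbs1, the matrix protein thrombospondin-1, fell by 1.30. In the basement membrane the collagen chain gene Col4a2 rose by 1.36, while Lama5, a laminin chain, read -1.03, -1.52 and -1.36 against 1.01, 0.74 and 0.74, 4.37-fold lower (adjusted p = 3.2e-04), and -2.07 from the other dormant lines.

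Fkbp10, a chaperone of collagen, was higher than in the parent by 2.36 but lower than in the other dormant lines, by a difference of -3.56, since their means were 0.65, 2.33 and 2.37. Plau, the urokinase plasminogen activator, was at least 7.26-fold higher, while its receptor Plaur fell by 0.98. Among 15 integrin genes 1 was higher and 3 lower. Itgb5, the beta chain that pairs with the alpha v chain, read -1.45, -2.30 and -1.56 against 1.40, 1.22 and 1.09, 8.02-fold lower, and differed by -3.20 from the other dormant lines. Its partner Itgav fell by 0.44, Itga1 fell by 1.42 and Itga4 rose by 0.76. Of 18 adhesion and junction genes 4 fell, among them F11r by 1.82, and 1 rose, the gap junction gene Gja1, by 2.13. Of the actin and septin genes 4 of 24 were higher and 1 lower. Capg, an actin-capping protein, read 4.75, 4.46 and 4.44 against 3.70, 3.28 and 3.48, a 2.09-fold rise (adjusted p = 0.0175), and Septin4 fell by 2.53. Septin9 differed by 0.25 (adjusted p = 0.34) and the arginine synthesis gene Ass1 by 0.40 (adjusted p = 0.82), so that neither passed. Of 35 genes that the study singled out in melanoma, possibly on these samples and so no independent evidence of direction, 2 were higher and 2 lower.

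Few cell cycle genes were called against the parent, while 1 inhibitor rose. Of 48 cell cycle genes 1 was called, Ccne1, which encodes cyclin E1, with a log2 difference of 0.39, and the median was 0.04. The share called was 2.08%, beside 5.5% of all genes, and gives no result about the list. Against the other dormant lines 2 of the 48 were higher and 7 lower in limma, with a median of -0.09. Over all genes 6.63% were higher and 6.71% lower in that comparison. Cdkn1c, the imprinted inhibitor p57, read 0.52, -0.04 and 0.27 against -2.80, -2.92 and -3.07, a 9.07-fold rise (limma adjusted p = 4.97e-04) with no overlap. Its means were -4.65, -5.29 and -4.77 in B16-D, B16-D-733 and B16-D-739, so that it stood 5.16 above the other dormant lines and the parent lay between. Of 21 genes of CDK inhibitors, p53 and senescence no other was called higher, and Gadd45g fell by 1.06. At an unadjusted p under 0.05, 4 of these 21 were higher and 2 lower. Of 14 imprinted genes 3 were higher, Cdkn1c, Igf2r and Plagl1, and 0 lower, and 1 or 2 were higher when any single array was left out.

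Among 26 genes tied to dormancy 4 were higher and 3 lower. Gas6, the ligand of the TAM receptors, read -0.41, -0.79 and -0.75 against -5.97, -5.62 and -4.64, with the parent above background on 1 of 3 arrays (adjusted p = 1.8e-05), and of the other dormant lines B16-D-733 was as high, at a mean of -0.69, while B16-D and B16-D-739 were at -4.85 and -5.81. Lifr, the LIF receptor, was at least 1.39-fold higher, and Nr2f1, an orphan nuclear receptor, fell by 0.52. Tyro3, a TAM receptor, rose by 0.59 on its brightest probe and differed by -0.46 over the mean of all its probes. Of its 2 probes only 1, the brightest, was well above background on at least 3 arrays. Pdgfrb, the platelet-derived growth factor receptor, was at least 2.81-fold higher and did not pass against the other dormant lines. Of 33 genes of TGF-beta and BMP signalling 2 were higher, Fstl1 by 8.3-fold and Gdf15 by at least 3.07-fold, and Smad3 fell by 0.36, a call lost whichever single array was left out. In all 9.09% of this list was called, beside 5.5% of all genes. Of 31 WNT genes 0 were higher and 2 lower in limma, or 3 and 4 at an unadjusted p under 0.05, and of 12 NOTCH genes 0 were called, with 2 higher and 1 lower unadjusted.

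Cytokine genes included 5 higher and 2 lower of 14. Il18, an interferon-gamma-inducing cytokine, read 1.75, 1.72 and 1.66 against 0.20, -0.06 and 0.22, a 3.01-fold rise (limma adjusted p = 0.00534), and stood 2.78 above the other dormant lines. Cxcl1, a neutrophil chemokine, was at least 1.14-fold higher, and Ctf1, cardiotrophin-1, was above the parent but differed by -3.03 from the other dormant lines. Csf1, the macrophage growth factor, fell by 0.97. Of 21 antigen presentation genes 2 were higher, H2-M3 at least 2.6-fold and the immunoproteasome subunit Psmb10, and Erap1 was lower. Of 31 apoptosis genes 3 were higher and 1 lower. Ripk3, the kinase of necroptosis, was at least 1.72-fold above the parent but differed by -1.56 from the other dormant lines (limma adjusted p = 7.84e-05). Of 28 axon guidance genes 3 were higher, among them Sema3a, a secreted semaphorin that was at background in the parent and in the other dormant lines, and 2 were lower.

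Markers of other cells of the brain and blood were checked, since the line was taken from tissue and bulk RNA cannot tell fewer cells from less RNA per cell. Of the neuronal markers 3 of 10 were above background in both lines, with a summed linear level of 11.5 to 16.3 in B16-D-735 and 6.57 to 9.94 in B16-M, Tubb3 rose by 1.30, and Rbfox3, Syt1 and Slc17a7 were not above background. Of the fibroblast and pericyte markers 5 of 10 were above background in B16-D-735 and 4 in B16-M, with sums of 17.03 to 17.53 and 9.91 to 14.8. Most of both sums came from Pdpn, which read 4.08, 4.01 and 4.05 against 3.61, 3.25 and 3.86. It was not called (log2 difference 0.47, limma adjusted p = 0.125). Among these markers Dcn and Pdgfrb rose, at far lower levels, while Pdgfra was above background in B16-M and not in B16-D-735 (adjusted p = 0.102). Lum, Col3a1, Rgs5 and Dpt were not above background. Astrocyte markers above background numbered 6 of 8 in both lines, with sums of 50.5 to 61.2 and 47.4 to 60.9. S100b read 5.42, 5.03 and 5.43 in B16-D-735 and 5.24, 4.84 and 4.84 in B16-M, while Slc1a2 and Slc1a3 were not above background. Endothelial markers above background numbered 3 of 8 in both lines, with sums of 3.25 to 5.45 and 5.81 to 7.84, and Cdh5, Kdr and Tek were not among them. Vwf rose by 4.001, with the parent above background on 1 of 3 arrays, and Egfl7 fell by 0.92 (adjusted p = 0.0359). Macrophage markers above background numbered 5 of 10 in both lines, with sums of 5.65 to 10.3 and 5.71 to 10.6. Itgam read 2.10, 2.08 and 2.80 in B16-D-735 and 1.99, 2.82 and 2.105 in B16-M, while Ptprc, Aif1 and Adgre1 were not above background. Lymphocyte markers above background numbered 5 of 7 in both lines, with sums of 1.43 to 3.9 and 1.85 to 3.65, and Cd8a and Nkg7 were not among them. Oligodendrocyte markers above background numbered 5 of 8 in both lines, with sums of 4.59 to 7.77 and 4.09 to 8.98. For markers of the leukemia line in the same series it was 3 of 10 in B16-D-735 and 4 in B16-M. Their sums were 4.75 to 6.4 and 2.11 to 2.71, and Il3ra rose by 1.47. The part of any such cells in the gene differences above was not tested.

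The median difference varied by chromosome. Over 12454 genes above background on all 6 arrays, assigned to 20 chromosomes by RefSeq (GRCm38.p6), the median log2 difference was 0.0242. On 5 chromosomes, picked after their values were seen, it lay well below this: -0.19 on chromosome 17, -0.167 on 3, -0.167 on 9, -0.156 on 12 and -0.148 on 13. The next lowest, chromosome 16, was at -0.0578. On chromosome 17 20.5% of the genes were above 0, and on chromosome 9 22.2%. These were the 5 lowest on 3 of 3 slides and in 17 of 17 fits. The slides and fits hold the same arrays that picked these chromosomes, so that this is a description and no independent check. Of the 2836 genes on these 5 chromosomes, 176 (6.21%) were called lower and 67 (2.36%) higher. On the other 15 chromosomes it was 171 (1.78%) and 428 (4.45%) of 9618 genes. The 5 were picked by the same differences, so that no test was made of these shares.

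The highest medians were 0.153 on chromosome 4 and 0.15 on chromosome 8, and chromosome X held 22 higher calls and 1 lower. In the other dormant lines the median against the parent was 0.0623 to 0.074 on chromosome 17 and 0.0487 to 0.0697 on chromosome 9. On chromosome 10 the order turned: B16-D-735 was at 0.0816, and B16-D, B16-D-733 and B16-D-739 were at -0.258, -0.264 and -0.262. DNA copy number was not measured in these arrays. The study measured it by array CGH in the parent, the first dormant line and the brain-derived lines. It reports no arm-level difference in the global pattern between dormant and parental cells, while some focal segments differed. Which of its brain-derived lines is B16-D-735 is not given, and a link to these medians was not tested.

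**Figure D5:**
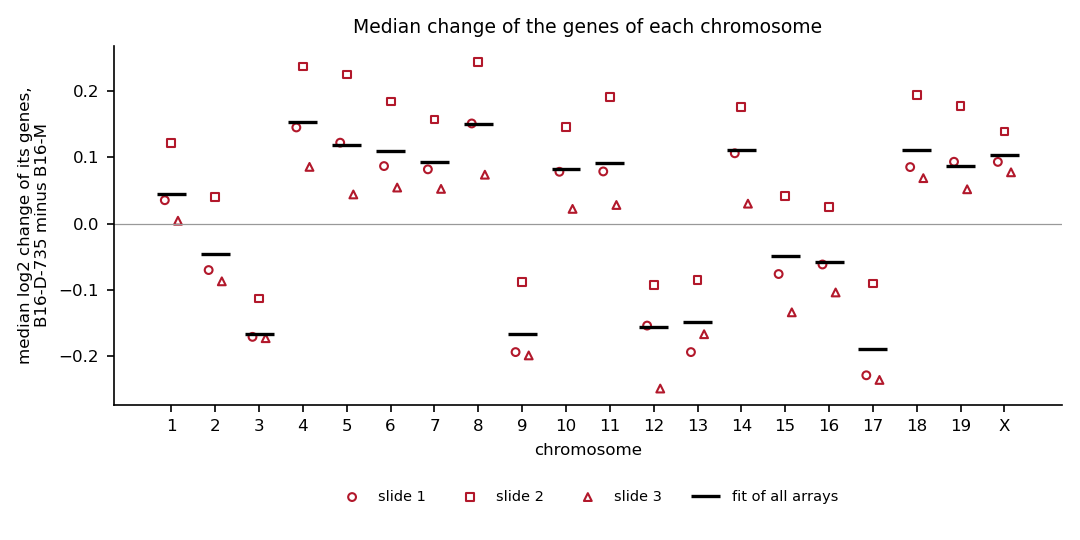
Median log2 difference of B16-D-735 from B16-M over the genes of each chromosome that were above background on all 6 arrays; open symbols are the differences within slides 1, 2 and 3, and bars are those of the fit. Chromosomes 3, 9, 12, 13 and 17 lie lowest, and on them all 3 slides lie below 0.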

How the data were processed

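RNA of cultured melanoma lines was labelled with Cy3 and hybridised to 1-colour Agilent mouse arrays, of which 6 of 24 are described. The deposited intensity values are the processed signals that the authors obtained with Agilent Feature Extraction 10.7.3.1, background-subtracted and detrended within each array but not scaled between arrays, and other deposited columns flag spots well above background. The study names GeneSpring for filtering and statistics; its normalization and the test behind the p-values are not given in the sources used here.

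Control spots were dropped, spots of a probe were averaged, and the log2 intensity minus the 75th percentile of the array was taken. The brightest probe stood for a gene, and 22869 genes and transcripts, 13578 with a symbol, were kept that were well above background on at least 3 arrays. Differences were tested with limma 3.58.1 (R 4.3.3, lmFit and eBayes) on 16 melanoma arrays, without B16-D replicate 2, on which 90.3% of spots were above background, and p-values were adjusted by Benjamini and Hochberg over all genes tested. The number of arrays limits the precision: on simulated data of the same size, 10% of genes changed by 0.5 on the log2 scale were recovered, 50% by 1, 66% by 2 and 100% by 4, with 4 false calls. The simulated noise was independent between genes. In the data, deviations were shared over genes, with correlations of -0.745 to 0.88 between arrays of the lines. The 4 false calls therefore do not estimate the false calls among these arrays.

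The named genes are the 12 largest rises and falls with separated arrays, and the 4 highest and 4 lowest called members of each gene list, or the 2 with the smallest p where none was called; Septin9, Capg and Ass1 were added, and genes named after their values were seen are marked. The marker genes, the uncalled members given with their values and the genes in the closing section were also named after the values were seen. Members and lists were chosen with earlier results of these data known. Alternatives were other arrays in the fit, slide or replicate as a block, normexp background correction, quantile scaling, other filters, the mean of all probes, a trended robust fit, the series value table and leaving out each array. The mean pixel signal is not used here, so normexp took the median spot and background intensities that the authors deposited, with an offset of 50. Some genes are not reported here. Promoters came from RefSeq (GRCm38.p6).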

Additional observations from a re-analysis of the deposited data

Results flagged for a closer look

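In 18 of 23 genes with the largest differences from the parent, B16-D-735 also differed from the mean of B16-D, B16-D-733 and B16-D-739 in the limma test of that difference, given here as the fitted log2 value of B16-D-735 minus that mean. It was higher for Rps6ka6 (6.09), Mrap (5.13), Hoxb7 (5.07), Dcn (4.03), Capn6 (3.07), Ldhd (1.97), Tdrp (1.64), Emilin1 (0.89) and Olfml1 (0.70). It was lower for Qpct (-6.02), Nsg1 (-4.94), Cx3cl1 (-3.97), Ece1 (-3.96), Dpysl5 (-3.85), Adcy2 (-3.82), Lrrc4b (-3.68), Wdr95 (-1.58) and Cbr2 (-1.40). Where 1 side lies at the background, the fitted value is neither a size nor a rank. There the difference is at least 17.99-fold for Rps6ka6, 28.2-fold for Mrap, 16.6-fold for Hoxb7 and 7.65-fold for Dcn, and at least 24.4-fold lower for Qpct, 6.55-fold for Nsg1, 7.13-fold for Cx3cl1, 5.11-fold for Ece1 and 3.13-fold for Adcy2. No bound is given for Wdr95, which was at the background in B16-D-735, B16-D-733 and B16-D-739. For Dpysl5 a second probe differed from the parent by only -0.47, and for Cbr2 by -1.95. The arrays of B16-D-735 enter both this difference and the one from the parent.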

How the results depend on the processing

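Against the parent, 1257 genes were called, 537 with only the 6 arrays of both lines and 2273 with the slide as a fixed block. Leaving out 1 array gave 756 to 1002, with 756 without B16-M replicate 1 and 833 without B16-D-735 replicate 0. Against the other dormant lines 3052 were called, 4644 with the slide as a block and 1692 to 2948 when 1 array was left out, with 1692 without B16-D-735 replicate 2 and 1970 without replicate 1. All other settings stayed within 1.5 times these counts. The cause was not tested.

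Replicate numbers did not pair the samples, since the deviations of arrays with the same number correlated at -0.34, 0.842 and -0.366. Those of arrays on the same slide correlated at 0.88, -0.068 and -0.069 for slides 1, 2 and 3. The slide thus paired the deviations on slide 1 alone. With the replicate number as a block 1562 genes were called against the parent and 3539 against the other dormant lines.

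Of the 120 named genes that were called, 74 to 120 were still called wherever all could be tested, 74 with only the 6 arrays. The sign turned for Tyro3 over the mean of all its probes (-0.46), of which 1 of 2 passed the background filter. It also turned without B16-D-735 replicate 1 for Mog and Csf1r, which were not called. Their values ranged from -0.52 to 0.11 and from -0.74 to 0.13 as single arrays were left out. As single arrays were left out, the call count was 0 or 1 for higher integrins, 0 or 1 for higher cell cycle genes, 1 or 2 for higher basement membrane genes, 0 to 2 for higher genes of the study, 2 or 3 for lower interstitial matrix genes, 2 to 4 for lower adhesion genes and 0 to 3 for lower apoptosis genes. Chromosome medians and list counts by setting were added after seeing the data. Signals at background give only bounds, and the low rises of the respiratory genes lie where few changes of that size were recovered in simulation.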

Other observations

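Some called genes stood beside each other in the genome. When the 13578 tested genes with a symbol were put in the order of the RefSeq table (GRCm38.p6), 9 runs of at least 3 neighbours were called in the same direction, 7 higher and 2 lower, and held 29 genes. One of the longest, on chromosome 15, held Samd12, Tnfrsf11b, Ccn3 and Enpp2. Tnfrsf11b, the decoy receptor osteoprotegerin, read -2.74, -2.68 and -2.86 in B16-D-735 and was not above background in B16-M, at least 4.42-fold higher (limma adjusted p = 4.28e-06). Ccn3, a matricellular protein, was at least 11-fold higher and Samd12 at least 6.63-fold higher. Enpp2, the autotaxin that makes lysophosphatidic acid, read 4.51, 3.80 and 4.38 against 2.98, 2.77 and 2.22 (log2 difference 1.58, adjusted p = 0.00702). All 4 were also above the other dormant lines, by 1.16 on the log2 scale for Samd12, at least 3.36-fold for Tnfrsf11b, 2.89 on the log2 scale for Ccn3 and 1.62 for Enpp2.

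On chromosome 5 Oas1c, Oas1f, Oas1g and Oas1a formed a run of 4, with log2 differences of 1.29, 1.40, 1.20 and 1.48, and on chromosome 11 Mrpl22, Igtp and Irgm2 a run of 3. Oas1f read 1.80, 2.35 and 2.82 against 0.72, 1.14 and 0.92. Genes of the Oas1 cluster are close in sequence, so that probes may read more than 1 of them. Enpep, the glutamyl aminopeptidase, lay in another run and was at least 3.15-fold higher. The runs were picked after their values were seen and no test was made of them.

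Beside the lists, single genes of other tissues were above background in B16-D-735 alone of these 2 lines. Esr1, the estrogen receptor, read -2.31, -2.59 and -2.40 and was at least 5.53-fold higher, and Dbh, the enzyme that makes noradrenaline, read -2.31, -3.09 and -1.64 and was at least 5.87-fold higher. Cfi, the protease factor I of the complement system, read -1.30, -1.03 and -1.70 and was at least 11.8-fold higher. The means of Dbh in the other dormant lines were -7.03, -6.90 and -6.59, with no array above background, so that B16-D-735 was at least 5.76-fold above them.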
